A study of Homo sapiens with 18 samples.

Results

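The genes described here encode the collagen chains. They were taken from the whole transcriptome RNAseq table of HCT116 cells by symbol, as COL followed by a number, the letter A and a number, and 44 of the 38055 genes listed met this rule. The 5 symbols with further letters (COL6A4P1, COL11A2P1, COL4A2-AS1, COL4A2-AS2 and COL25A1-DT), which are pseudogenes, antisense transcripts and a divergent transcript, were left out. Of the 44 chains, 11 belong to fibrillar collagens, 6 to type IV collagen of basement membranes and 27 to other types.

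The study followed the nuclear localization of Argonaute 2 as cells were grown to high density. HCT116 is a human colorectal carcinoma line of epithelial type, and all libraries came from wild-type (WT) cells kept in McCoy's 5A medium with fetal bovine serum and no further agent. RNAseq values were analysed for cells grown for 3 days (50% confluency) and 5 days (250% confluency), with 3 biological replicates per day, and small-RNAseq values for 3 replicates each on days 3, 5 and 7 (400% confluency). Day and density changed together in this design and cannot be told apart, and every library came from 1 cell line.

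Collagens are proteins of 3 chains wound into a triple helix. Fibrillar collagens assemble into the banded fibrils of connective tissue and are made mainly by fibroblasts, type IV collagen forms the sheet-like network of basement membranes under epithelia, and the other types decorate fibrils, form beaded filaments or anchoring fibrils, or stay in the cell membrane. Epithelial cells are known for making basement membrane and membrane-spanning chains more than fibrillar ones. Several collagens need chains from different genes, so the levels of partner genes are of interest together.

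Depth ranged from 27470978 to 56689369 reads per library on day 3 and from 31403756 to 33661896 on day 5. The values are normalized reads per gene, in which 1 read was worth 0.618 to 1.42 units depending on the library. A gene was tested with limma on log2(value + 1) where it reached a value of 10 in at least 3 of the 6 libraries, and it was called where the Benjamini-Hochberg adjusted p over all 20129 genes tested was under 0.05. In this contrast 56.9% of all genes were called, 29.3% higher and 27.6% lower on day 5, so a call alone says little about any 1 gene. Of 8 epithelial markers all were tested and 7 were higher on day 5. EPCAM, an epithelial adhesion molecule, was between 6932 and 7403 in all 6 libraries, and the summed level of the 8 markers went from 39451 to 58320 on day 3 to 112313 to 112673 on day 5. Of 8 fibroblast markers 6 were listed and 1, ACTA2, was tested and higher, with the list's sum at 58.8 to 97.8 on day 3 and 156 to 185 on day 5. DCN, a defining fibroblast gene that is also in the list of matrix partners, was at 0 in 5 of 6 libraries. FAP was at most 2.17, PDPN at most 6.51, THY1 at most 7.09 and PDGFRB at most 11.9. Of 8 endothelial and blood cell markers 7 were listed, 3 were tested and 2, VWF and KDR, were higher. VWF was at most 39.7 and KDR at most 30.4, and HBB did not pass. This list summed to 28.4 to 44.5 on day 3 and 54.9 to 84.6 on day 5. The part of these markers in the collagen changes was not tested. In bulk RNA, more cells of a kind and more RNA per cell cannot be told apart.

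Of the 44 collagen chain genes, 28 passed the filter, and 19 of these 28 were higher on day 5, 0 were lower and 9 did not pass the test. That is 67.9% called higher, against 29.3% of all genes. The median log2 fold change of the 28 was 0.74, against 0.01 over all genes tested. Of the 28, 11 were both called and at least 2-fold higher, where 10.2% of all genes were. In 20 of the 28 all day 5 libraries lay above all day 3 libraries, against 33.4% of all genes. COL20A1 passed the filter only through its day 5 values, which favours a difference. It is counted among the 19, the 11 and the 20, so its rise adds no support to these shares. The called log2 fold changes ran from 0.49 (COL4A5) to 2.21 (COL13A1).

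**Figure D1:**
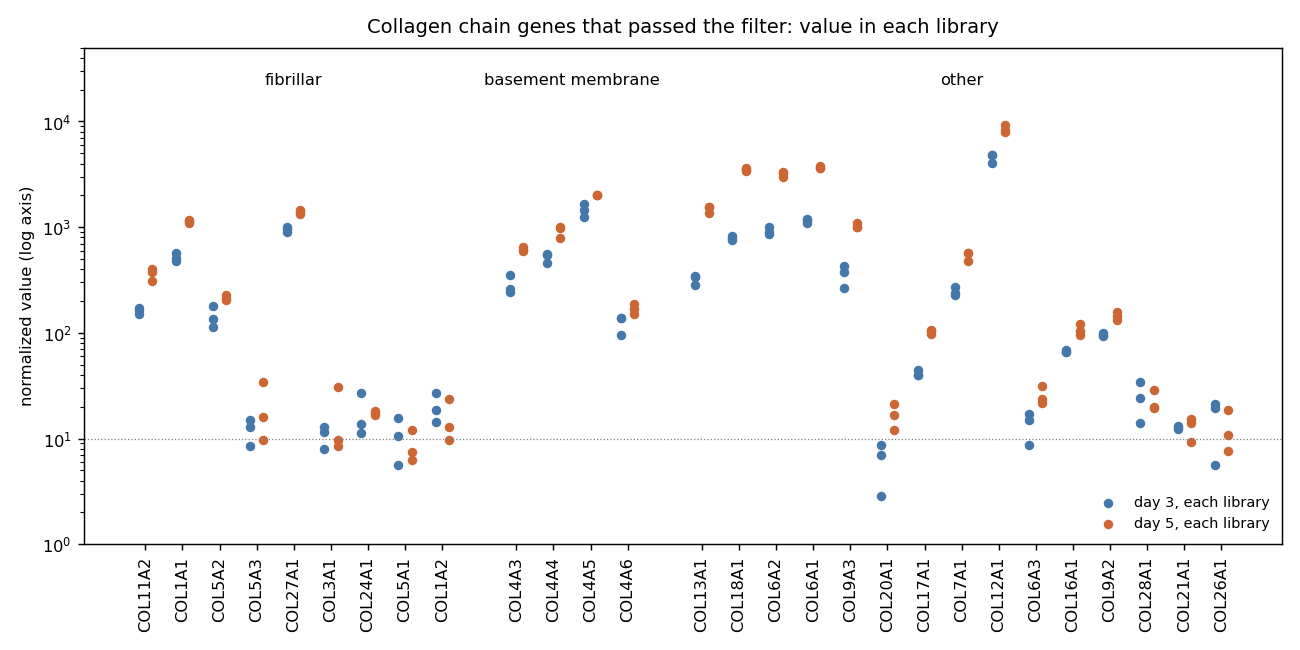
Normalized value (log axis) of each of the 28 collagen chain genes tested, 1 point per library, blue for day 3 and orange for day 5, grouped by class and ordered by fold change. The dotted line is the value of 10 used by the filter. Day 5 points stand clear above day 3 points for 20 genes, and COL12A1 has the highest values on both days, not corrected for gene length.

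**Figure D2:**
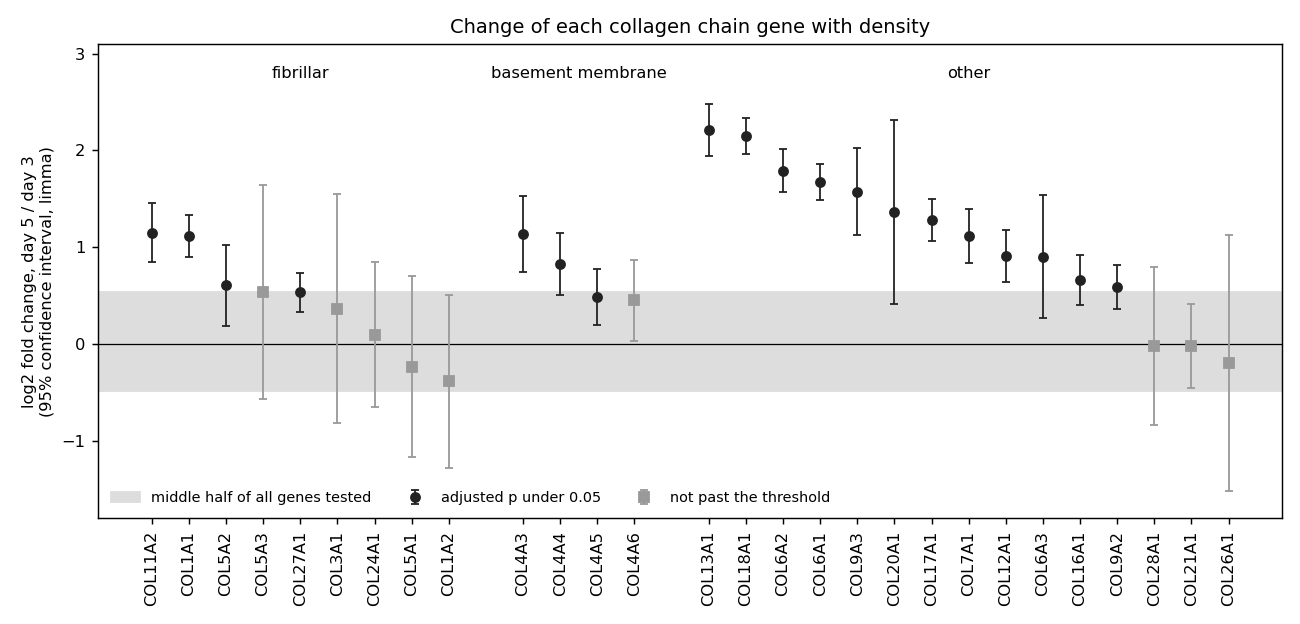
Log2 fold change on day 5 over day 3 for the same 28 genes, with the 95% confidence interval from limma. Black circles passed an adjusted p of 0.05, grey squares did not, and the grey band runs from the lower to the upper quartile of all genes tested (-0.49 to 0.53). No interval of a called gene reaches 0, which follows from the call, since both come from the same fit. Above the band lie 19 estimates, among them COL5A3, which was not called, whereas COL4A5, which was called, lies inside the band.

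Fold changes of the called members were largest among the collagens outside the fibrillar and type IV classes. Of these 27 genes 15 were tested, 12 were higher and 3 did not pass, with a median log2 fold change of 1.12. That is 80.0% higher, against 29.3% of all genes tested. The 12 include COL20A1, which passed the filter only through its day 5 values. COL13A1 (ENSG00000197467, chr10:69801880-69964275, plus strand) had the largest change. It encodes a collagen that spans the plasma membrane and is found at cell-cell and cell-matrix contacts. Its values were 346, 337 and 286 on day 3 and 1371, 1557 and 1568 on day 5. The day 5 libraries were all far above the day 3 libraries, with a fold change of 4.63 (95% interval 3.85 to 5.58, adjusted p = 1.5e-04 by limma). COL17A1, the other membrane-spanning chain tested and a part of hemidesmosomes, was at 44.8, 39.6 and 39.7 on day 3 and 96.5, 106 and 104 on day 5. The groups did not overlap, and the log2 fold change was 1.28 ± 0.09 (SE, adjusted p = 2.2e-04). The other membrane-spanning chains, COL23A1 and COL25A1, were not tested; COL25A1 was at 0 in 3 of 6 libraries and COL23A1 at 7.25 or less.

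COL18A1 (ENSG00000182871, chr21:45405165-45513720, plus strand) encodes a basement membrane proteoglycan of the multiplexin group, whose end fragment is endostatin. Its values were 759, 828 and 787 on day 3 and 3396, 3477 and 3659 on day 5. These are separate groups with little spread, 4.43-fold apart (95% interval 3.89 to 5.06, adjusted p = 1.0e-04). COL15A1, its closest relative, was not tested, with values of 1.04 to 7.42.

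The 250 bases before the start of the 3 genes with the largest rises are printed from RefSeq (GRCh38.p14), to show how their promoters differ. Capitals mark TATAAA and GGGCGG on either strand, the letters of a TATA box and a GC box. The windows are chr10:69801656-69801905 for COL13A1, chr21:45404915-45405164 for the upstream start of COL18A1 and chr21:46097862-46098111 for COL6A2, all on the plus strand.
COL13A1: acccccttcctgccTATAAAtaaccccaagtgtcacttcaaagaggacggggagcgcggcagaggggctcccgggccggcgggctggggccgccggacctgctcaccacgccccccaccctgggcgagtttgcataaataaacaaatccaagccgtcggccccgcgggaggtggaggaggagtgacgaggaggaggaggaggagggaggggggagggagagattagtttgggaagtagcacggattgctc
COL18A1: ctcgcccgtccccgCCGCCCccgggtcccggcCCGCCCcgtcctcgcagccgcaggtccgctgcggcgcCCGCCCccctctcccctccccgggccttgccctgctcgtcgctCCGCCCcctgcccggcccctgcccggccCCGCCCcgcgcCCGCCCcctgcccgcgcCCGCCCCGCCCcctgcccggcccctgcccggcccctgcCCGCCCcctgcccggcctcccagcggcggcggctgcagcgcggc
COL6A2: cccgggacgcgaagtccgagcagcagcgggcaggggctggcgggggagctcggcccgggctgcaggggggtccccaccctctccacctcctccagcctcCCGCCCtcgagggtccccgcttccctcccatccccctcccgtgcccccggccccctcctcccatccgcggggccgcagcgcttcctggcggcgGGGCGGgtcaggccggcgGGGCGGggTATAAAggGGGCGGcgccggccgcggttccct

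The COL13A1 window held 1 TATAAA and no GGGCGG, the COL18A1 window 9 GGGCGG and no TATAAA, and the COL6A2 window 4 GGGCGG and 1 TATAAA. Their GC content was 64.0%, 88.4% and 79.6%. COL18A1 has a downstream start as well, whose window (chr21:45455272-45455571) held 1 of each. Across 35116 promoter windows of 300 bases in the RefSeq table (250 bases before and 50 after a start), 45.0% held GGGCGG, 11.5% TATAAA, 21.4% ACGTG and 7.71% TGANTCA on either strand. Of 44 windows of the 32 collagen chain genes that the table holds, 24, 8, 7 and 1 held them in that order. Of the 18 windows of members called higher, 11, 5, 3 and 0 did. Among the members called, COL11A2 and COL18A1 have several windows each, and COL6A1, COL1A1, COL9A3, COL5A2 and COL20A1 have none. COL5A1, which was not called, has 2 windows that overlap almost wholly. Windows are thus not independent. A match here is a description of letters only.

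Type VI collagen forms beaded filaments next to basement membranes, from an alpha-1, an alpha-2 and an alpha-3 or related chain. COL6A1 (ENSG00000142156, chr21:45981770-46005050) was at 1089.6, 1169.6 and 1195 on day 3 and 3756, 3645 and 3609.7 on day 5. COL6A2 (ENSG00000142173, chr21:46098112-46132848) was at 867, 899 and 1001 and then at 3289, 3290.4 and 3006. Both genes were several-fold higher in every day 5 library. The log2 fold changes were 1.67 ± 0.08 (adjusted p = 1.4e-04) and 1.79 ± 0.09 (adjusted p = 1.6e-04). The genes lie on the same strand of chromosome 21, with starts 116342 bases apart and COL18A1 upstream of both.

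Per kb of exon, the ratio of COL6A1 to COL6A2 was 1.20 on day 3 (1.15 to 1.25) and 1.11 on day 5 (1.07 to 1.16). These genes kept close to equal levels while both rose. The alpha-3 chain gene COL6A3 was far lower, at 8.78, 14.8 and 17.0 on day 3 and 23.9, 31.1 and 21.7 on day 5. Its log2 fold change was 0.90 ± 0.26 (adjusted p = 0.0265). The call was lost without day 5 replicate 1 (adjusted p = 0.0547) or replicate 2 (0.0737). Per kb of exon, COL6A1 was 343 times COL6A3 on day 3 and 565 times on day 5. Per kb of the main annotated transcript, COL6A1 was at 274 and COL6A3 at 1.29 on day 3, and at 873 and 2.43 on day 5. The size of the ratio thus depends on the gene model. COL6A5 and COL6A6, which encode chains that can take the alpha-3 place, were at 2.07 or less in all libraries, so no gene for this position was at a level near those of COL6A1 and COL6A2.

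Of the fibril-associated collagens, which sit on the surface of fibrils, 10 were listed, 6 tested and 5 higher, where 29.3% of all genes tested were. The 5 include COL20A1, which passed the filter only through its day 5 values. COL12A1 had more normalized reads than any other member on both days, before gene length is taken into account. Its values were 4049, 4775 and 4794 on day 3 and 8354, 7866 and 9348 on day 5. The groups were separate, with a log2 fold change of 0.91 ± 0.11 (adjusted p = 9.8e-04). COL9A3, an alpha-3 chain of type IX collagen, was at 375, 425 and 264 and then at 1006, 1002 and 1107. Its log2 fold change was 1.57 ± 0.18 (adjusted p = 8.6e-04), and day 3 replicate 3 was the lowest library. COL9A2 was at 94.8, 94.0 and 99.2 and then at 132, 146 and 158, a log2 fold change of 0.59 ± 0.09 (adjusted p = 0.00250). The partner chain genes thus moved apart in ratio, from 3.15 (2.31 to 3.94) to 6.22 (5.99 to 6.62) per kb for COL9A3 over COL9A2. The remaining type IX gene, COL9A1, was at 3.51 or less and was not tested.

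COL16A1 was higher by 0.66 ± 0.11 (adjusted p = 0.00266), from 66.4 ± 1.81 (SD, n = 3) to 106 ± 12.7, in the log2 fit. COL20A1 was higher by 1.37 ± 0.39 (adjusted p = 0.0251) but low, at 7.02, 8.65 and 2.84 and then at 11.9, 21.4 and 16.6. COL20A1 dropped under the filter when any 1 day 5 library was left out. COL21A1 was between 9.32 and 15.2 in all libraries, with a log2 fold change of -0.02 and a 95% interval of -0.46 to 0.41, which does not show that its level stayed equal. COL19A1 was at 0 in every library except 1 of day 5.

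COL7A1 encodes the chain of anchoring fibrils, which tie basement membranes to the tissue below. It was at 273, 237 and 229.7 on day 3 and 567, 567 and 475 on day 5. The groups did not overlap, with a log2 fold change of 1.12 ± 0.11 (adjusted p = 5.6e-04). COL26A1 and COL28A1 did not pass the test, with log2 fold changes of -0.20 (95% interval -1.52 to 1.12) and -0.02 (-0.83 to 0.79). The short chain network genes COL8A1, COL8A2 and COL10A1 were not tested, and no value of theirs was above 8.78.

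Type IV collagen comes from 6 genes that lie in head-to-head pairs. The alpha-1 and alpha-2 chains are the usual network of most basement membranes, alpha-3, alpha-4 and alpha-5 together form the network of the glomerulus and lung, and alpha-5 with alpha-6 is found under many epithelia. In these cells COL4A1 was at 7.02, 2.47 and 2.84 on day 3 and 5.42, 5.36 and 6.21 on day 5, and COL4A2 was at 2.63, 1.24 and 4.25 and then at 7.59, 3.22 and 5.18. Neither was tested, since neither reached a value of 10 in any library. The other 4 genes were well above this, and 3 of the 4 were higher on day 5, with a median log2 fold change of 0.66. Of all genes tested 29.3% were higher.

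COL4A5 had the highest level of the class per kb of exon, 122 on day 3 and 169 on day 5. Its normalized values were 1657, 1444 and 1238 on day 3 and 2011, 2018 and 2006 on day 5. The groups did not overlap, and its log2 fold change of 0.49 ± 0.12 (adjusted p = 0.0150) was the smallest of the calls. COL4A6 was at 139, 138 and 96.4 and then at 151, 188 and 168. These groups did not overlap either, but the log2 fold change of 0.45 ± 0.17 did not pass (adjusted p = 0.0665, limma), whereas edgeR and DESeq2 on the recovered reads gave 0.0461 and 0.0484. COL4A3 was at 356, 241 and 258 and then at 593, 614 and 653, and COL4A4 was at 552, 548 and 459 and then at 797, 977 and 1001. Both were clearly separate between days, with log2 fold changes of 1.14 ± 0.16 (adjusted p = 0.00166) and 0.83 ± 0.13 (adjusted p = 0.00249).

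The starts of COL4A3 and COL4A4 lie 171 bases apart on chromosome 2 and those of COL4A5 and COL4A6 341 bases apart on the X chromosome. The genes of each pair are read in opposite directions. The annotated COL4A1 and COL4A2 genes on chromosome 13 overlap at their starts, which are 1345 bases apart. The stretch that lies within 250 bases before a RefSeq start of both genes is printed for the expressed pairs. The stretches are chr2:227164374-227164455 and chrX:108439588-108439708, read on the plus strand, and neither held any of the 4 motifs searched. The annotated COL4A4 gene reaches to chr2:227164453, beyond its RefSeq start. Nearly all of the chromosome 2 stretch thus lies inside the annotated gene and is upstream only of the RefSeq start.
COL4A3 and COL4A4: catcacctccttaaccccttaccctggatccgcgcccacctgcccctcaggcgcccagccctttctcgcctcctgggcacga
COL4A5 and COL4A6: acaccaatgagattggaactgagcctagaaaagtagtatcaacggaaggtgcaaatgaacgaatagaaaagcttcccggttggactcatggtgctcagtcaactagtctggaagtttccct

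Within the pairs the ratios per kb changed less between days than the levels did. COL4A3 was 0.522 times COL4A4 on day 3 (0.423 to 0.621) and 0.648 times on day 5 (0.605 to 0.716). COL4A5 was 9.16 times COL4A6 (8.19 to 10.0) and then 9.36 times (8.41 to 10.4). Partners differed in level, most in the X-linked pair, and in both pairs the ranges of the ratio on day 3 and day 5 overlapped. Across pairs, COL4A5 was 2.76 times COL4A4 on day 3 (2.62 to 2.99) and 2.18 times on day 5 (1.99 to 2.51), and those ranges did not overlap.

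Fibrillar collagens were the class with the smallest share of calls. Of 11 genes 9 were tested, 4 were higher and 5 did not pass, with a median log2 fold change of 0.54. That is 44.4% higher, against 29.3% of all genes tested. The 5 that did not pass had no value above 34.2 in any library, so the classes differ in level as well as in kind. The part of level in this share was not tested. COL1A1, the alpha-1 chain of type I collagen, was at 566, 512 and 483 on day 3 and 1092, 1156 and 1138 on day 5. The groups were far apart and the log2 fold change was 1.12 ± 0.09 (adjusted p = 2.9e-04). COL1A2, the alpha-2 chain that usually joins it, was at 18.4, 14.2 and 26.9 and then at 9.76, 12.9 and 23.8. Its groups overlapped, with a log2 fold change of -0.39 (95% interval -1.28 to 0.51, adjusted p = 0.400). The ratio of COL1A1 to COL1A2 per kb was 32.5 on day 3 (21.5 to 43.3) and 94.0 on day 5 (57.4 to 134). Of the type I chain genes COL1A1 passed the test, and COL1A2 was near the filter.

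COL11A2, a chain of the fibril-nucleating type XI collagen, was at 171, 164 and 150.3 on day 3 and 406, 373 and 309 on day 5. Its log2 fold change was 1.15 ± 0.12 (adjusted p = 6.6e-04), the largest of the class, while COL11A1 was at 2.84 or less and not tested. COL5A2, a type V chain, was at 180.0, 136 and 115 and then at 205, 226 and 215. Its log2 fold change of 0.61 ± 0.17 passed (adjusted p = 0.0244), but not without day 3 replicate 2 (0.0680), day 5 replicate 2 (0.0687) or day 5 replicate 3 (0.0606). Its partner COL5A1 was at 5.67 to 15.8 in all libraries. COL27A1, a chain of thin cartilage fibrils, was at 1008, 960.0 and 896 and then at 1442, 1329 and 1377, a log2 fold change of 0.54 ± 0.08 (adjusted p = 0.00239).

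The other 4 fibrillar genes tested were low and their groups overlapped. COL3A1, the type III chain, was between 8.04 and 12.8 on day 3, and on day 5 it was at 9.76, 8.57 and 31.1. COL5A3 was likewise highest in day 5 replicate 3, at 34.2, against 9.76 and 16.1 in the other day 5 libraries. The log2 fold changes of COL3A1, COL5A3, COL5A1 and COL24A1 were 0.37, 0.54, -0.23 and 0.10, with 95% intervals of -0.82 to 1.55, -0.57 to 1.64, -1.17 to 0.70 and -0.66 to 0.85. COL24A1 was at 27.2 in day 3 replicate 1 and at 11.3 to 18.2 elsewhere, and without that library it was called higher (log2 fold change 0.45, adjusted p = 0.0209). COL2A1 was between 2.47 and 8.28 and not tested.

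Apart from COL4A6, the 8 members tested but not called had no value above 34.2 in any library, and their intervals were wide. The 16 members not tested reached at most 19.5, in COL14A1 on day 5, and at most 18 reads. Changes of these 16 genes were not detectable at this depth. A 0 here allows up to 3 reads per library.

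Summed over all 44 genes, the normalized value was 12871 ± 289 (SD, n = 3) on day 3 and 29366 ± 764 on day 5. Per kb of exon, the other types made up 70.1% of the sum on day 3 and 80.5% on day 5, the fibrillar genes 13.9% and 9.70%, and type IV 16.0% and 9.82%. All 3 classes had a higher sum on day 5, and the other types grew most.

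**Figure D3:**
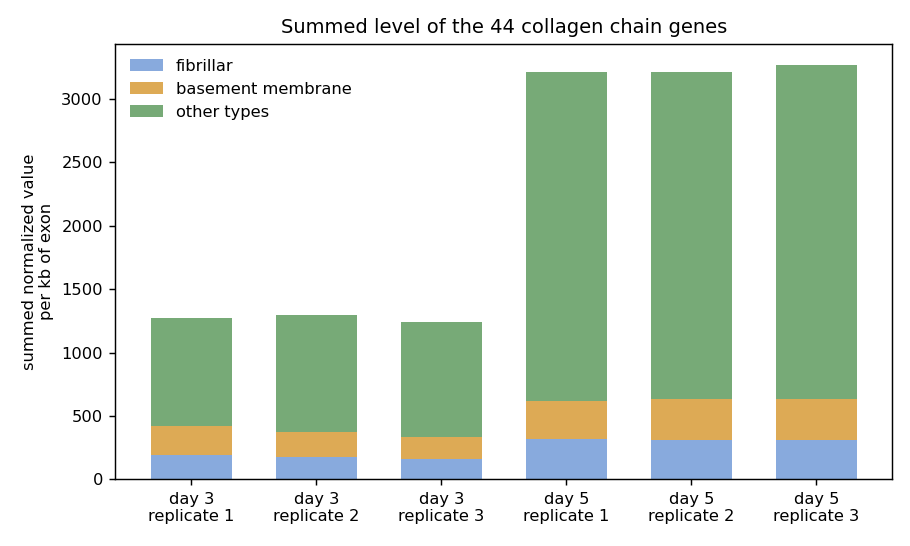
Summed normalized value per kb of exon of the 44 collagen chain genes in each RNAseq library, as stacked bars by class. The day 3 bars reach 1237 to 1298 and the day 5 bars 3207 to 3268, and most of the added height belongs to the other types.

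The order of levels per kb also shifted. On day 3 COL12A1 was first with 19.0% of the summed level, followed by COL6A1 (16.4%), COL6A2 (13.6%) and COL4A5 (9.60%). On day 5, by exon length, COL6A1 led with 20.5%, followed by COL6A2 (18.5%), COL12A1 (14.0%) and COL18A1 (12.8%). The day 5 levels per kb of COL12A1 (452 ± 40.1) and COL18A1 (415 ± 16.0) differed by less than the SD of COL12A1. By the length of the main annotated transcript COL6A2 (17.8%) stood above COL6A1 (16.7%) on day 5, so their order depends on the gene model. COL13A1 went from 2.21% to 4.03% on exon length. With its main annotated transcript as length it went from 5.08% to 9.13%, so its place depends on the gene model too. The ratios between partner genes, given above per kb of exon, depend on it as well.

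miR-29 is the microRNA family best known for repressing collagen mRNAs, through sites in their 3′UTRs. Its mature 3p arms are printed from the RefSeq table with the seed, bases 2 to 8, in capitals, to show that all share 1 seed.
miR-29a-3p: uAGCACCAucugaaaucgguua
miR-29b-3p: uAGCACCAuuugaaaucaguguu
miR-29c-3p: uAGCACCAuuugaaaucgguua

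The seed pairs with TGGTGCT in a 3′UTR, read on the mRNA strand. In GENCODE 3′UTRs 17 of the 28 members tested had at least 1 such site (60.7%), against 16.1% of 13094 genes tested with a 3′UTR. The median 3′UTR length was 1051 bases for these members and 1287 bases for all. Sites in a fibrillar, a beaded filament and an anchoring fibril gene are shown with the 15 bases before them, with the site in capitals. They lie at chr17:50184573-50184594 (minus strand), chr21:46132587-46132608 (plus strand) and chr3:48564323-48564344 (minus strand).
COL1A1: tggggagggaatcacTGGTGCT
COL6A2: agcccaccccgtccaTGGTGCT
COL7A1: cactgtccctcccctTGGTGCT

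Of the 17 members with a site 10 were higher on day 5, and of the 11 without a site 9 were. The median log2 fold change was 0.54 with a site and 1.28 without. Among members with a site, COL5A3, COL3A1, COL24A1, COL21A1, COL5A1 and COL1A2 were not called and had no value above 34.2. Their intervals were wide, so the medians differ in level as well as in sites. COL20A1, COL26A1 and COL28A1, without a site, were low too, and COL20A1, counted among the 9, passed the filter only through its day 5 values. The part of the sites was not tested. Over the 13094 genes tested with a 3′UTR, the median log2 fold change was 0.21 with a site and 0.09 without. COL13A1, COL18A1 and COL6A1, among the members with the largest rises, had no site, and COL6A2 had 1. COL5A1 had the most sites, 4, and was not called.

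The small-RNAseq values are log2 and normalized by the authors, and they do not show how many reads stand behind each value. In 539 miRNAs tested on day 5 against day 3, 14.8% were called, and 0 of the 5 miR-29 arms tested were, by limma. At an unadjusted p under 0.05 the number was also 0. miR-29a-3p, the most abundant arm, was at 15.1, 15.2 and 14.7 on day 3, 14.9, 14.9 and 14.9 on day 5 and 15.4, 15.5 and 15.5 on day 7. Its log2 fold change on day 5 was -0.07 (95% interval -0.37 to 0.23), and those of miR-29b-3p and miR-29c-3p were -0.01 and -0.00. For these 3p arms, day 5 libraries lay within the spread of day 3. miR-29b-1-5p was at 6.14, 6.31 and 6.25 on day 3 and 6.20, 6.51 and 6.34 on day 5.

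On day 7 against day 3, 53.7% of 559 miRNAs were called in either direction, and 4 of 5 miR-29 arms were called, all higher. The log2 fold changes were 0.50 ± 0.13 for miR-29a-3p (SE, adjusted p = 0.0123), 0.63 ± 0.16 for miR-29b-3p (0.00986), 0.36 ± 0.13 for miR-29c-3p (0.0457) and 0.56 ± 0.14 for miR-29a-5p (0.00972, limma). miR-29b-1-5p, at 0.19, did not pass. These calls rest on the authors' scale, since 0 of the 5 arms passed when libraries were scaled to equal totals. As a share of the summed mature miRNA level the family stayed between 1.80% and 2.01% in all 9 libraries. No RNAseq values of day 7 were analysed here, so the collagen genes could not be followed to that day.

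**Figure D4:**
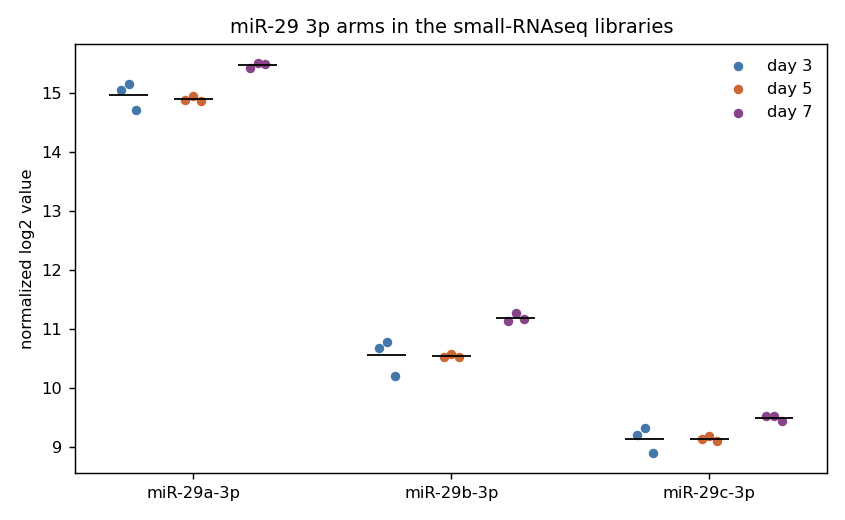
Normalized log2 value of the 3 miR-29 3p arms in each small-RNAseq library on days 3, 5 and 7, with 1 point per library and a line at each mean. Day 5 points fall inside the range of day 3, and day 7 points lie above both.

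Genes that fold, export and trim procollagen were listed separately, 23 in all. Of the 21 tested, 10 were higher and 4 lower, with a median log2 fold change of 0.27. Over all genes tested 29.3% were higher, 27.6% were lower and the median was 0.01. CREB3L2, a membrane-bound transcription factor of the secretory pathway, was at 1349, 1619 and 1701 on day 3 and 3517, 3731 and 3557 on day 5 (log2 fold change 1.22, adjusted p = 3.8e-04). BMP1, which cuts the C-terminal propeptide, and PCOLCE, its enhancer, were higher by 1.07 (adjusted p = 2.2e-04) and 1.09 (adjusted p = 0.00219). The genes that fell were FKBP14 (-0.69, adjusted p = 0.00139) and PPIB (-0.40, adjusted p = 0.0440), which are prolyl isomerases, SEC23A (-0.38, adjusted p = 0.0157), a coat protein of the vesicles that carry procollagen, and TMEM39A (-0.37, adjusted p = 0.0150), an endoplasmic reticulum protein. Other genes of the same kinds rose, the prolyl isomerase FKBP10 (0.88, adjusted p = 3.1e-04, limma) and the coat protein gene SEC24D (0.41, adjusted p = 0.0203). Without any 1 day 5 library, 2 genes of this list were called lower in place of 4.

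Of 12 collagen receptors 9 were tested, 4 were higher and 0 lower, with a median of 0.54. That is 44.4% higher, where 29.3% of all genes tested were higher and 27.6% lower. DDR1, a receptor tyrosine kinase for collagen, was at 2100.1, 2645 and 2664 on day 3 and 7846, 7759.8 and 7934 on day 5 (log2 fold change 1.68, adjusted p = 2.2e-04). ITGA2, the alpha-2 subunit of a collagen-binding integrin, was higher by 1.55 (adjusted p = 1.9e-04). MRC2, which takes up collagen, was at 267, 253 and 247 and then at 791, 838 and 862 (adjusted p = 1.4e-04). The remaining call was ADGRG1, an adhesion receptor, at 1.21 (adjusted p = 2.4e-04). ITGB1, the beta-1 subunit shared by collagen-binding integrins, was at 14507 ± 381 and 15224 ± 1009 (SD, n = 3) and did not pass (adjusted p = 0.513).

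Of 19 collagen-cleaving proteases and inhibitors 11 were tested, 5 were higher and 1 lower, with a median of 0.48. That is 45.5% higher, where 29.3% of all genes tested were higher and 27.6% lower. MMP14 and MMP15, membrane-bound metalloproteinases, were higher by 1.86 (adjusted p = 1.6e-04) and 1.41 (adjusted p = 7.7e-04), and TIMP2, which inhibits them, by 1.91 (adjusted p = 2.0e-04). TIMP1, a further inhibitor, and CTSB, a lysosomal protease, were the other genes called higher, by 1.20 (adjusted p = 0.00116) and 1.04 (adjusted p = 7.0e-04). The secreted MMP1, MMP2, MMP9 and MMP13 were at 9.92 or less and not tested. CTSL, another lysosomal protease, fell (-0.57, adjusted p = 0.00289).

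Of 20 basement membrane and matrix partners 19 were listed in the table and 7 tested, with 6 higher, 1 lower and a median of 1.44. That is 85.7% higher, where 29.3% of all genes tested were higher and 27.6% lower. HSPG2, the proteoglycan perlecan, was at 1009.7, 975 and 933 on day 3 and 5378, 5538 and 5293 on day 5 (log2 fold change 2.47, adjusted p = 8.3e-05). FN1, fibronectin, and PXDN, the peroxidase that cross-links type IV collagen, were higher by 1.81 (adjusted p = 1.9e-04) and 1.46 (adjusted p = 4.2e-04). SPARC, a collagen-binding matricellular protein, fell (-1.06, adjusted p = 0.0271) from a low level of 22.7 ± 5.41 (SD, n = 3) to 10.6 ± 3.89. This call was lost without a filter on low values, and without day 3 replicate 1, day 3 replicate 3 or day 5 replicate 3. NID1 and NID2, the nidogens that link type IV collagen to laminin, were at 7.25 or less.

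**Figure D5:**
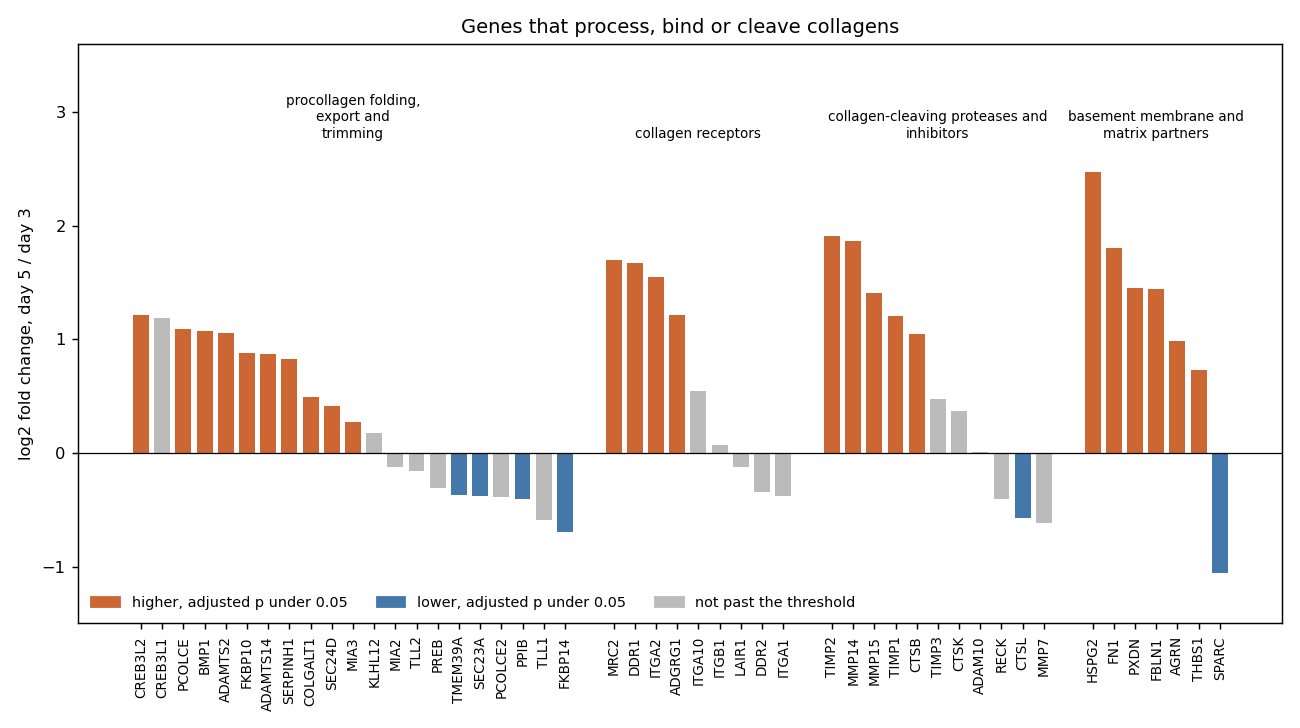
Log2 fold change on day 5 over day 3 of the genes tested that process, bind or cleave collagens or share their matrix, in 4 lists. Orange bars are higher and blue bars lower at an adjusted p under 0.05, and grey bars did not pass; HSPG2 has the tallest bar at 2.47 and SPARC the lowest at -1.06.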

How the data were processed

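Whole transcriptome RNAseq of HCT116 cells on days 3 and 5 and small-RNAseq on days 3, 5 and 7 were used, with 3 libraries per day grouped by the labels. The members and gene lists were chosen with earlier results of these data known.

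The authors mapped ribosomal RNA-depleted, strand-specific reads with UMI adapters to ENSEMBL hg38 genes in CLC Genomics Workbench; their methods name TMM. The deposited signal values are normalized per library, and 100% were whole multiples of 1 read (tolerance 0.01 reads), so reads were recovered. The deposited small RNA values are log2, normalized by the authors (TMM and edgeR). Columns holding comparisons made by the authors (fold change, p-value) were not used.

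limma (version 3.58.1, R 4.3.3) was fitted to log2(value + 1), which understates changes of low genes, and to the small RNA log2 values, with a value of 10 in at least 3 libraries. edgeR 4.0.16 and DESeq2 1.42.0 were run on the recovered reads as alternatives. Lengths, loci and 3′UTRs came from GENCODE 44 by identifier (44 of 44 members). All members tested are named; of each other list, up to 3 called genes with the largest rise and fall, and any further ones were chosen after their values were seen. The fits were tested on simulated data. Python 3.11.15 (pandas 2.3.3, matplotlib 3.10.9) was used for tables and figures. Alternatives were library totals, no filter, a pseudocount of 0.1 (small RNA 1), a replicate block, a fitted trend, edgeR, DESeq2, a 2-fold minimum and leaving out each library. Intervals and the limit of 3 reads cover counting or library spread only.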

Additional observations from a re-analysis of the deposited data

How the results depend on the processing

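The number of collagen chain genes called higher was 19 and stayed between 15 and 20 under every alternative except a 2-fold minimum, and the number called lower was 0 throughout. With the 2-fold minimum 11 were called, 2 of them fibrillar and 1 of type IV. Leaving out 1 library in turn gave 16 to 20. Without a filter COL20A1, COL6A3, COL5A2 and COL4A5 lost their call (adjusted p = 0.0688, 0.0754, 0.0788 and 0.0643, limma), and 15 of 44 were called. DESeq2 did not call COL6A3 (adjusted p = 0.0620). COL4A6 gained a call with a fitted trend (adjusted p = 0.0272). The causes were not tested.

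Of the procollagen folding, export and trimming genes, 4 were called lower, against 1 without a filter, 7 with a trend, 7 with edgeR and 0 with the 2-fold minimum, which left 4 called higher; leaving out 1 library gave 2 to 5. Of the proteases and inhibitors, 1 was called lower, against 2 with a trend, 2 with edgeR, 2 with DESeq2 and 0 with the 2-fold minimum, and 1 to 2 when 1 library was left out. The lower call among matrix partners, SPARC, was lost without a filter (0 called), and leaving out 1 library gave 0 to 1, lost without day 3 replicate 1, day 3 replicate 3 or day 5 replicate 3.

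On library totals the log2 fold change of COL28A1 was 0.0452 and of COL21A1 0.0408, and that of COL24A1 was -0.0434 with edgeR and -0.0321 with DESeq2, all with the sign opposite to that reported. Leaving out 1 library gave ranges of -0.15 to 0.18 for COL21A1, -0.14 to 0.45 for COL24A1, -0.75 to 0.11 for COL26A1 and -0.35 to 0.26 for COL28A1, and on day 5 of -0.20 to 0.0163 for miR-29a-3p, -0.0735 to 0.18 for miR-29a-5p, -0.19 to 0.10 for miR-29b-3p and -0.12 to 0.0897 for miR-29c-3p. The 4 calls of miR-29 arms on day 7 became 0 on library totals, where miR-29b-1-5p was at -0.31 and miR-29c-3p at -0.14, and 0 without a filter, where more miRNAs were tested.

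Same-numbered libraries did not deviate together in RNAseq (correlations of -0.01, 0.03 and 0.02), so the numbers were not taken to pair them. With the replicate number as a block 19 collagen chain genes were called higher, 0 lower, and 4 miR-29 arms on day 7, and all genes called went from 11450 to 10533. In the small RNA data same-numbered correlations were 0.07, 0.12 and 0.11 for day 5 and 0.11, 0.01 and 0.04 for day 7. Differently numbered ones ran from -0.10 to -0.01 for day 5 and from -0.11 to 0.06 for day 7. The paper used a paired t-test for total miRNA reads, whereas the main small RNA fit here was unpaired. Reads set a limit for the 16 members with at most 18 reads in any library, and the small RNA values do not show the reads behind them.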
